A study of Mus musculus with 16 samples.

Results

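The genes described here are 34 regulators and inflammatory targets of NF-kB, chosen by name as a list of NF-kB subunits, inhibitors, adaptors, cytokines and other targets, and each symbol matched 1 row among the 30819 genes of the expression matrix. By role, 5 are subunits, 6 are IkB proteins, 4 are feedback regulators, 7 are adaptors and kinases, 7 are cytokines and 5 are other targets. They were measured by RNA-seq in myeloid cells sorted from MN/MCA1 tumours, a transplantable mouse fibrosarcoma, grown under the skin of C57BL/6J mice that were either wild type for complement component C3 or C3 knockout, and taken at day 21. The 16 libraries form 4 groups of 4, with macrophages (CD45+, CD11b+, F4/80+, Ly6C-) and monocytes (CD45+, CD11b+, Ly6C+, F4/80-) from wild-type mice 1 to 4 and knockout mice 6 to 9, and both gates left out Ly6G+ and CD11c+ cells. The knockout lies in the host, and no source used here says whether the injected tumour cells carry C3 or gives the ages and sexes of the mice.

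NF-kB is a family of dimeric transcription factors built from the products of Nfkb1, Nfkb2, Rel, Rela and Relb. In resting cells IkB proteins hold the dimers in the cytoplasm. Signals from Toll-like receptors, TNF receptors and others activate IkB kinases, the IkB proteins are degraded, and the dimers enter the nucleus and bind kB sites. Many of the genes they switch on encode their own inhibitors, such as Nfkbia and Tnfaip3, so that the response limits itself, and in myeloid cells the targets include inflammatory cytokines.

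Reads recovered from the deposited log2 values summed to 18689405 to 29049212 per library over the genes of the matrix. Levels are given as normalized reads, the reads recovered from the deposited log2 values and divided by each library's size factor. Differences are given on the deposited log2 scale, which draws each gene towards its own mean, so that a difference is smaller than the log2 of the ratio of normalized reads. The test was limma's, and a gene counted as called where its p, adjusted by Benjamini-Hochberg over the whole table, was under 0.05. C3 itself was at 4008 ± 858 (SD, n = 4) in wild-type and 1235 ± 168 (n = 4) in knockout macrophages, and at 15157 ± 718 and 4925 ± 288 in monocytes. It was lower in all 8 knockout libraries but not at 0, and no source used here says which part of the gene was deleted. The sorted cells carried the markers of their labels. Of 9 macrophage markers tested, 9 were higher in wild-type macrophages than monocytes, and 8 of 8 monocyte markers were lower. In knockout mice 8 of 9 macrophage markers were higher, with Cd68 not called, and 8 of 8 monocyte markers were lower. The median log2 difference of the macrophage markers was 2.16 in wild-type and 1.47 in knockout mice.

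In C3 knockout macrophages 3 NF-kB genes rose, the subunit gene Rel, Tnip3, listed among the feedback regulators, and the adaptor gene Traf1, and none fell. They are 3 of the 32 members tested (9.38%), where 5.70% of all 12568 genes tested were called, 2.57% higher and 3.13% lower. The groups of 4 libraries did not overlap for 4 of the 32 members, against 13.1% of all genes. The members' median log2 difference was 0.02, beside 0.00 over all genes. At an unadjusted p under 0.05 there were 7 members (21.9%), close to the 20.2% of all genes.

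Rel encodes c-Rel, a subunit found mainly in blood cells that is known for driving Il12b and Il23a in myeloid cells. In wild-type macrophages it stood at 1013, 975, 991 and 995 normalized reads in mice 1 to 4, and in knockout macrophages at 1568, 1366, 1724 and 1478 in mice 6 to 9. The wild-type libraries lay within a narrow band and every knockout library was above it. The level rose 1.54-fold, from 993 ± 15.5 to 1534 ± 151 (SD, n = 4 each), a log2 difference of 0.44 ± 0.05 (SE; adjusted p = 3.74e-04). None of the other 4 subunit genes was called in macrophages. Their log2 differences ran from 0.01 for Relb, the partner of the non-canonical pathway, to 0.10 for Nfkb1, the precursor of p50.

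Tnip3 encodes ABIN-3, a member of the ABIN family of A20-binding proteins whose gene is induced by NF-kB. Wild-type macrophages gave 1307, 1484, 1155 and 1477 normalized reads and knockout macrophages 2114, 2317, 2696 and 2409. All 4 knockout libraries exceeded all 4 wild-type libraries. The means were 1356 ± 157 and 2384 ± 242 (SD, n = 4 each), a 1.76-fold rise and a log2 difference of 0.59 ± 0.07 (adjusted p = 3.60e-04). The related Tnip1, which encodes ABIN-1, was at 2245 ± 106 and 2085 ± 73.5 and was not called (adjusted p = 0.332). Tnfaip3, which encodes A20 itself, the ubiquitin-editing enzyme to which ABIN proteins bind, was at 8247 ± 1517 and 7940 ± 2130 (adjusted p = 0.892). Zc3h12a, whose product Regnase-1 degrades cytokine mRNAs, was at 1102 ± 206 and 1250 ± 316 (adjusted p = 0.741).

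Traf1 encodes an adaptor that joins TNF receptors to the cIAP proteins. It stood at 999, 1104, 1150 and 1089 normalized reads in wild-type macrophages and at 1598, 1655, 1798 and 1948 in knockout macrophages. These groups did not overlap either. The rise was 1.61-fold, from 1085 ± 63.3 to 1750 ± 157 (SD, n = 4 each), with a log2 difference of 0.48 ± 0.05 (adjusted p = 2.12e-04). Birc3, which encodes cIAP2, was the 4th member without overlap, at 2310, 2468, 2275 and 2061 in wild-type against 2499, 2831, 2937 and 2681 in knockout macrophages. Its log2 difference of 0.19 ± 0.05 just missed the threshold (adjusted p = 0.0531), and over the alternative fits its adjusted p ran from 0.0335 to 0.140. The remaining adaptor and kinase genes, Birc2 (cIAP1), Traf2, Cflar (c-FLIP, an inhibitor of caspase-8), Malt1 (a paracaspase that cleaves NF-kB inhibitors) and Ikbke (an IkB-kinase-related kinase), had log2 differences from -0.11 to 0.15 and were not called.

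The Rel and Tnip3 promoters are shown because both genes were called between genotypes and their windows hold the kB consensus. The windows are the 250 bases before the RefSeq start, on the gene's strand and 5′ to 3′, with the kB consensus matches in capitals. The Rel window is chr11:23770970-23771219 on the minus strand and the Tnip3 window is chr6:65590148-65590397 on the plus strand, both of GRCm38.p6, and the Tnip3 window lies inside the longer GENCODE span of the gene.
Rel: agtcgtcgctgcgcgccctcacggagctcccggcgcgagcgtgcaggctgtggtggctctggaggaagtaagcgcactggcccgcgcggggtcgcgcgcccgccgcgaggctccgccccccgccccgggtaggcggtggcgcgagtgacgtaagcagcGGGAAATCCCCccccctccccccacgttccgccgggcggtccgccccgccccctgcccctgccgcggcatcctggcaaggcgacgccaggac
Tnip3: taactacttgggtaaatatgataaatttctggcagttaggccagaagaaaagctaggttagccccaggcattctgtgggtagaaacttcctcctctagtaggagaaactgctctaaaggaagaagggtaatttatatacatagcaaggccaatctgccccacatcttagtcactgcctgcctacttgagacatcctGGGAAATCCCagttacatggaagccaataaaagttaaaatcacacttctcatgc
The Tnip3 match, GGGAAATCCC, begins 54 bases before the start. The same 10 bases begin 92 bases before the Rel start, followed by an overlapping match 91 bases before it. On either strand, that 10-base word was present in 31 of 32851 RefSeq windows of this length (0.0944%), and among the members only in those of Rel and Tnip3, a point chosen after the sequences were seen. The whole kB consensus was searched on both strands with overlapping matches allowed. It matched in 14 of 33 windows of 26 members (42.4%), against 7.3% of all windows. Some members have several windows, and by gene it matched in 12 of the 26 (46.2%), against 8.2% of all genes. The members were chosen as NF-kB genes, so the excess may come with that choice and carries no test. Of the other members called between genotypes, no match lies in the Traf1 or Saa3 windows. No window was at hand for Cd83, Nfkb1, Relb, Nfkbiz, Malt1, Il23a, Il27 and Osm. A match describes these letters and is not evidence of binding.

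**Figure D1:**
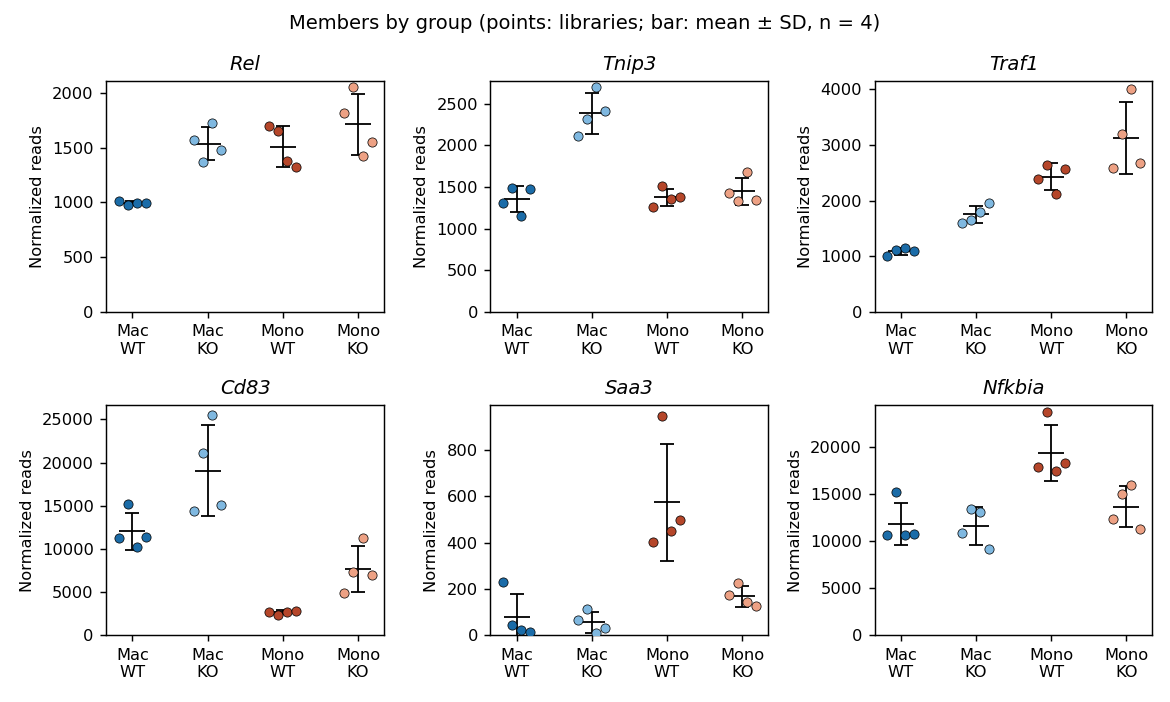
Normalized reads (vertical axes, linear, from 0) of Rel, Tnip3, Traf1, Cd83, Saa3 and Nfkbia in macrophages (Mac) and monocytes (Mono) of wild-type (WT) and C3 knockout (KO) mice. Each point is a library and the bars give mean ± SD (n = 4). Rel, Tnip3 and Traf1 did not overlap between genotypes in macrophages, and Cd83, Saa3 and Nfkbia did not overlap in monocytes.

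None of the IkB genes was called in knockout macrophages. Nfkbia, which encodes IkB-alpha, the inhibitor that is degraded and resynthesized in each round of signalling, was at 11857 ± 2256 and 11643 ± 1990 normalized reads (log2 difference -0.02 ± 0.11). The largest difference of the 6 was that of Nfkbiz, which encodes the nuclear coactivator IkB-zeta, at 0.19 ± 0.09 (adjusted p = 0.274). Nfkbib, Nfkbie, Nfkbid and Bcl3, which encode IkB-beta, IkB-epsilon, IkB-NS and the nuclear cofactor Bcl-3, lay between -0.09 and 0.08.

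No cytokine gene or other target passed the test in macrophages. Tnf was at 465, 676, 485 and 558 normalized reads in wild-type against 601, 759, 1225 and 606 in knockout macrophages, with mouse 8 far above the other 3 knockout mice and the groups overlapping (log2 difference 0.36 ± 0.17, adjusted p = 0.279). Il12b, which encodes the p40 chain shared by IL-12 and IL-23, was at 54.2, 70.7, 59.1 and 43.9 and 83.7, 80.3, 140 and 65.6. Mouse 8 was again highest, and the difference of 0.47 ± 0.17 was not called (adjusted p = 0.151). Cd83, which encodes a surface protein of activated antigen-presenting cells, was at 11258, 15178, 10291 and 11392 and 14406, 21148, 25544 and 15151, overlapping through wild-type mouse 2 (difference 0.48 ± 0.15, adjusted p = 0.130). In the authors' deposited table of this comparison, Birc3 and Cd83 passed as well (adjusted p = 0.00868 and 0.0309), which makes 5 members. Il6, Il27, Osm, Tnfaip2, Sod2, Ier3 and Saa3 differed by -0.21 to 0.02, and Il12a and Il23a were too low to be tested.

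Markers of macrophages themselves and of other cells also moved between the macrophage groups. The macrophage markers Mrc1, Apoe, Ms4a7 and Mertk (4 of 9 tested) were lower in knockout macrophages, and the list's summed level was 758392 to 889074 normalized reads in wild-type and 588354 to 714144 in knockout libraries. The 4 red blood cell markers were lower, with sums of 428 to 1272 against 145 to 242, and none was at 0 in either group. None of the 5 fibroblast and sarcoma markers tested was called, with sums of 1056 to 2977 in wild-type and 237 to 1197 in knockout libraries, where Lum was at 0 throughout. Of 2 B and plasma cell markers tested, Cd79b was higher, and the list's sums of 57.5 to 99.8 and 135 to 200 did not overlap, with Jchain at 0 in wild-type and Pax5 at 0 in knockout libraries. Of 4 T and NK cell markers tested, Cd4 was lower, and sums of 113 to 142 and 50.5 to 76.2 did not overlap. Ier2 was lower, 1 of 19 immediate early genes tested, with sums of 309625 to 388014 and 265371 to 427087. Dendritic cell markers (7 tested), neutrophil markers (5 tested) and monocyte markers (8 tested) were not called. The part of these shifts in the rise of Rel, Tnip3 and Traf1 was not tested. In bulk samples such as these, fewer cells of a type and less RNA per cell cannot be told apart.

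In knockout monocytes Cd83 rose and the acute-phase gene Saa3 fell. These were 2 of 33 members tested (6.06%), 1 in each direction, where 3.32% of all 12867 genes were called, 1.40% higher and 1.92% lower. For 5 of the 33 members the groups did not overlap (15.2%), against 11.1% of all genes. At an unadjusted p under 0.05 there were 13 members (39.4%), against 17.4% of all genes, and 11 of those 13 did not pass the adjusted threshold. The members' median log2 difference was 0.04, beside -0.01 over all genes.

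Cd83 stood at 2703, 2366, 2744 and 2880 normalized reads in wild-type monocytes and at 4964, 7331, 11308 and 6991 in knockout monocytes. The lowest knockout library, that of mouse 6, was above the highest wild-type library, and that of mouse 8 was the highest. The level rose 2.86-fold, from 2673 ± 219 to 7649 ± 2654 (SD, n = 4 each), a log2 difference of 0.99 ± 0.15 (adjusted p = 0.00535). The knockout libraries spread more widely than the wild-type ones, but the call held when each library was left out in turn.

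Saa3 encodes a serum amyloid A protein that macrophages and other cells make in inflammation, and it belongs to a family of similar genes. Wild-type monocytes gave 401, 945, 449 and 497 normalized reads and knockout monocytes 176, 227, 145 and 125. All knockout libraries were below all wild-type libraries, and wild-type mouse 2 was far above the others. The level was 3.41-fold lower in knockout monocytes, 573 ± 251 against 168 ± 44.2 (SD, n = 4 each), a log2 difference of -1.28 ± 0.21 (adjusted p = 0.00682). Fitting all 16 libraries together ended this call (adjusted p = 0.125), and the authors' deposited table does not have it either (adjusted p = 0.144). In macrophages the Saa3 libraries spread over 16.1 to 230 (wild type) and 10.6 to 114 (knockout), too widely for a difference to be detectable (95% interval of the log2 difference -1.53 to 1.36).

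None of the 6 IkB genes and none of the 4 feedback regulators was called in knockout monocytes, with median log2 differences of -0.01 and -0.10 beside -0.01 over all genes. Nfkbia was at 17861, 23787, 17508 and 18299 in wild-type against 12320, 15011, 15955 and 11332 in knockout monocytes, with no overlap. Its log2 difference was -0.37 ± 0.09 (adjusted p = 0.0615), and a fit of all 16 libraries brought it under the threshold (adjusted p = 0.0480), as does the authors' deposited table (adjusted p = 0.0181). Tnfaip3 was at 6915, 8394, 7246 and 6256 and 4353, 6133, 6209 and 4551, also with no overlap. Its difference was -0.32 ± 0.09 (adjusted p = 0.1000), and no alternative fit brought it under 0.05. Zc3h12a was at 930, 1068, 875 and 951 and 869, 791, 825 and 555. There the highest knockout library lay just under the lowest wild-type library (difference -0.24 ± 0.09, adjusted p = 0.195). Nfkbiz overlapped between genotypes (7690 to 11813 and 4938 to 8904; difference -0.31 ± 0.13, adjusted p = 0.251). Bcl3 differed in the other direction, by 0.18 ± 0.08 (adjusted p = 0.233), and Nfkbib, Nfkbie, Nfkbid, Tnip1 and Tnip3 by -0.01 to 0.10.

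Subunits and adaptors were not called in knockout monocytes. The 5 subunit genes differed by 0.01 to 0.13, the latter for Rel, with libraries at 1696, 1647, 1374 and 1321 in wild-type against 1817, 2054, 1424 and 1549 in knockout monocytes that overlapped widely. Traf1 was at 2386, 2648, 2117 and 2573 and 2592, 3204, 4001 and 2681. Its groups overlapped and its log2 difference of 0.25 ± 0.10 was not called (adjusted p = 0.203), while the authors' deposited table has it at an adjusted p of 0.0426. The other adaptor and kinase genes lay between -0.08 for Ikbke and 0.17 for Birc2.

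Of the cytokines, Il6, a classical NF-kB target, was at 377, 498, 205 and 249 normalized reads in wild-type against 128, 239, 126 and 141 in knockout monocytes. Knockout mouse 7 reached into the wild-type range, and the difference of -0.77 ± 0.22 was not called (adjusted p = 0.0929). It passed without that library (0.0427) and in the authors' deposited table (0.0357). Tnf had the opposite sign, at 450, 567, 424 and 450 and 524, 528, 785 and 713, with overlap (difference 0.29 ± 0.11, adjusted p = 0.166). Osm, which encodes the IL-6 family cytokine oncostatin M, was at 39515, 60599, 41145 and 50497 and 37200, 49661, 39341 and 22703, where knockout mouse 9 was lowest (difference -0.30 ± 0.17, adjusted p = 0.420). Il12b, Il23a and Il27 were not called, and Il12a, at 12.3 ± 7.89 in wild-type and 3.79 ± 4.13 in knockout monocytes, was too low to be tested. Among the other targets, Ier3, an early response gene of cell survival, was at 21453 ± 4845 and 15277 ± 4200 (difference -0.38 ± 0.16, adjusted p = 0.262), and Tnfaip2 and Sod2 differed by 0.10 ± 0.07 and -0.05 ± 0.07.

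Markers and early response genes also shifted between the monocyte groups. Egr1, Ier2 and Btg2, 3 of 19 immediate early genes tested, were lower in knockout monocytes, with summed levels of the list at 589408 to 814552 in wild-type and 462307 to 808978 in knockout libraries. Of 7 dendritic cell markers tested, Cd209a was higher and Itgax lower, with sums of 4341 to 5818 against 3424 to 4313. The neutrophil marker Retnlg was higher (1 of 7 tested), while the list's median log2 difference was -0.37, with a range of -2.16 to 2.39. Its sums were 8186 to 12196 in wild-type and 7066 to 16644 in knockout libraries. Fibroblast and sarcoma markers were not called (6 tested) and summed to 4156 to 8772 and 1400 to 6971. The 4 red blood cell markers were not called, with a median log2 difference of -1.13 and sums of 1430 to 3569 and 309 to 1274 that did not overlap. T and NK cell markers (6 tested), B and plasma cell markers (2), macrophage markers (9) and monocyte markers (8) were not called. In none of these lists was a marker at 0 throughout either group. Their part in the differences of Cd83 and Saa3 was not tested.

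**Figure D2:**
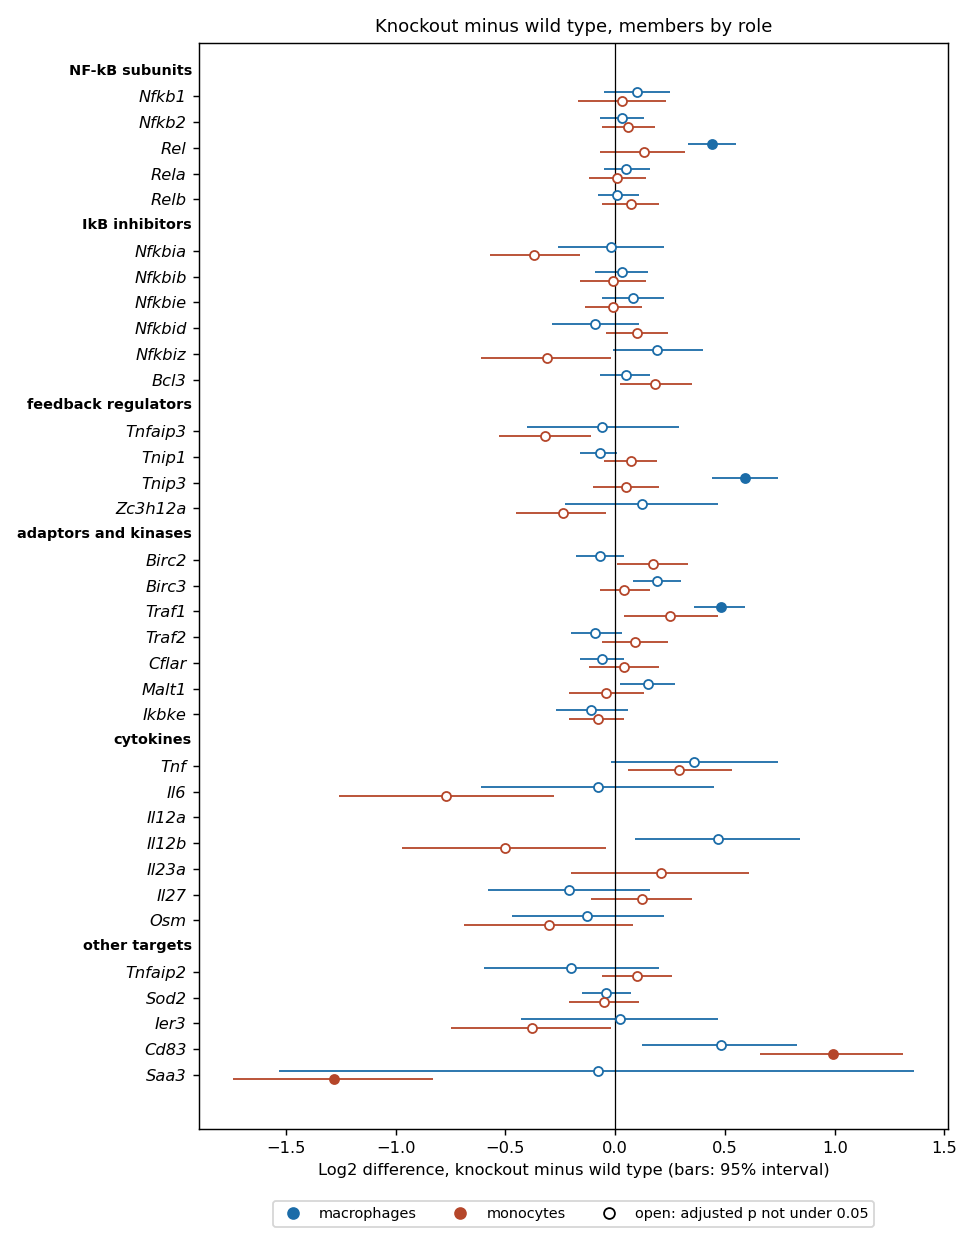
Log2 difference between knockout and wild type (horizontal axis, deposited log2 scale) for each member, ordered by role, in macrophages (blue) and monocytes (red). Points are estimates, bars 95% intervals, and open points did not pass an adjusted p of 0.05. Filled points mark Rel, Tnip3 and Traf1 in macrophages and Cd83 and Saa3 in monocytes. Il12a was tested in neither and Il23a in monocytes alone.

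The test of whether the knockout effect differed between macrophages and monocytes called 1 member of 33 (3.03%), Tnip3, where 0.617% of all 13134 genes were called, 0.358% higher and 0.259% lower. Over all genes these were 47 higher and 34 lower, and 43 and 50 with TMM scaling. The knockout effect on Tnip3 was larger in macrophages by 0.54 ± 0.10 on the log2 scale (adjusted p = 0.0139, and 0.00528 to 0.0406 over the alternative fits). In monocytes Tnip3 was at 1261, 1508, 1356 and 1375 in wild-type against 1433, 1329, 1680 and 1345 in knockout mice, a log2 difference of 0.05 ± 0.07. For Rel the difference between the effects was 0.31 ± 0.11 (adjusted p = 0.242), for Traf1 0.22 ± 0.12 (0.502), for Cd83 -0.51 ± 0.23 (0.415), and for Saa3 it had a 95% interval of -0.24 to 2.64 (0.545). None of these 4 was called, so their knockout effects are not shown to differ between the cell types. At an unadjusted p under 0.05 there were 8 members (24.2%), against 11.4% of all genes.

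Between the cell types, most NF-kB genes were lower in macrophages than in monocytes of the same tumours. In wild-type mice 25 of 32 members were called (78.1%), 22 lower and 3 higher in macrophages, where 63.4% of all 12769 genes were called, 31.7% lower and 31.7% higher. In knockout mice 26 of 32 were called (81.2%), 20 lower and 6 higher, against 60.5% of 12772 genes, 29.6% lower and 31.0% higher. The share of members called lower stood farther from its background than the share called in either direction. The members' median log2 difference was -0.46 in wild-type and -0.36 in knockout mice, beside -0.01 and 0.00 over all genes. For 24 of 32 members the cell types did not overlap in wild-type mice, against 57.6% of all genes, and for 24 of 32 in knockout mice, against 55.2%. In both genotypes 19 members were lower and 2, Il12b and Cd83, were higher, and no member was called in opposite directions.

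All 5 subunit genes were lower in wild-type macrophages. Nfkb1 was at 858, 726, 701 and 781 normalized reads in macrophages and 1598, 1510, 1573 and 1843 in monocytes of mice 1 to 4. Monocytes were 2.13-fold higher, 1631 ± 146 against 766 ± 69.6, a log2 difference of -0.77 ± 0.06 (adjusted p = 7.51e-07). Rela, which encodes the transactivating subunit p65, was 1.40-fold higher in monocytes, and Nfkb2, the precursor of p52, was 1.32-fold higher, both without overlap. Relb differed least (2153 ± 155 against 2443 ± 92.3, adjusted p = 0.0269), and its call was lost in 7 alternative fits. Rel was 1.52-fold higher in wild-type monocytes than macrophages, 1509 ± 189 against 993 ± 15.5 (adjusted p = 1.01e-04). In knockout mice, where macrophage Rel was higher, the cell types were at 1534 ± 151 and 1711 ± 281 and were not called apart (adjusted p = 0.284), while the other 4 subunits were again lower in macrophages.

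The IkB genes split. Bcl3 and Nfkbib were lower in macrophages in both genotypes, with monocytes 1.91-fold and 1.55-fold higher in wild-type mice. Nfkbia was 1.63-fold higher in wild-type monocytes (adjusted p = 0.00110). In knockout mice, where monocyte Nfkbia was at 13655 ± 2184, its difference of -0.17 ± 0.10 was not called (adjusted p = 0.172), though it was with the mouse as a replicate block (0.0117). Nfkbie was lower in macrophages of wild-type mice (-0.20 ± 0.05, adjusted p = 0.00640) and Nfkbid in those of knockout mice (-0.30 ± 0.09, adjusted p = 0.00994). Nfkbiz went the other way in knockout mice, at 10333, 13369, 14820 and 10226 in macrophages and 5874, 8904, 7170 and 4938 in monocytes. Macrophages were 1.81-fold higher there (0.62 ± 0.13, adjusted p = 0.00250), and in wild-type mice the difference was 0.12 ± 0.09 (adjusted p = 0.291, and 0.0370 with the replicate block).

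Of the 4 feedback regulators, 3 were higher in macrophages of knockout mice. Tnip3 was at 2384 ± 242 in knockout macrophages and 1447 ± 162 in knockout monocytes (0.52 ± 0.07, adjusted p = 3.90e-05), and at 1356 ± 157 and 1375 ± 102 in wild-type mice, where it was not called. Zc3h12a was 1.65-fold higher in knockout macrophages (0.50 ± 0.15, adjusted p = 0.0141). It overlapped through mouse 9, whose macrophages (815) lay under the monocytes of mice 6 and 8 (869 and 825). Tnfaip3 was 1.49-fold higher (0.40 ± 0.15, adjusted p = 0.0408), a call lost in 5 alternative fits. In wild-type mice neither was called, but Tnfaip3 passed with the replicate block (0.0178) and was higher in macrophages in 4 of 4 mice. Tnip1 was lower in macrophages in both genotypes, with monocytes 1.58-fold and 1.82-fold higher. A test of the difference between genotypes is the same as that of the knockout effects above, which called Tnip3 and none of Nfkbiz (0.252), Zc3h12a (0.494) and Tnfaip3 (0.665).

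Among adaptors and kinases, Malt1, Ikbke, Traf1, Cflar and Birc3 were lower in macrophages in both genotypes. In wild-type mice Malt1 had the largest ratio of these 5, with monocytes 2.66-fold higher at 2248 ± 333 against 846 ± 47.2 (adjusted p = 3.57e-07). Ikbke was at 5260 ± 434 in wild-type monocytes and 2350 ± 182 in macrophages (2.24-fold, adjusted p = 1.79e-07), and in knockout mice its ratio, 2.28-fold, was above that of Malt1. Traf1 was 2.24-fold higher in wild-type monocytes and 1.78-fold higher in knockout monocytes. Traf2, an adaptor of TNF receptors, was higher in wild-type macrophages (1.22-fold, adjusted p = 0.00444) and not called in knockout mice (adjusted p = 0.779). Birc2 was called in neither genotype. In wild-type mice its adjusted p was 0.0767, and some alternative fits called it higher in macrophages (0.0259 with TMM scaling).

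Among the members, cytokines and other targets held the largest differences between the cell types. Osm was at 7469, 9037, 6396 and 6894 normalized reads in wild-type macrophages and at 39515, 60599, 41145 and 50497 in the monocytes of the same mice. Every monocyte library was far above every macrophage library, 6.44-fold in wild-type mice (log2 difference -1.92 ± 0.11, adjusted p = 2.47e-07) and 5.56-fold in knockout mice (adjusted p = 1.83e-04). Il6 was at 40.9, 55.0, 12.9 and 18.6 in wild-type macrophages, against the 205 to 498 of monocytes given above. Monocytes were 10.4-fold higher in wild-type (adjusted p = 6.11e-05) and 5.97-fold higher in knockout mice (adjusted p = 6.34e-06). Il27, which encodes the p28 chain of IL-27, was 2.69-fold and 3.62-fold higher in monocytes (adjusted p = 6.05e-06 and 3.54e-05).

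Il12b went the other way. Wild-type monocytes had 6.18, 11.6, 16.9 and 9.81 normalized reads and knockout monocytes 3.76, 3.62, 0 and 10.6, where mouse 8 had none, and all macrophage libraries were higher, at 43.9 to 70.7 in wild-type and 65.6 to 140 in knockout mice. The ratio was 5.13-fold in wild-type (1.37 ± 0.16, adjusted p = 2.04e-05) and 20.6-fold in knockout mice (2.34 ± 0.21, adjusted p = 1.43e-06), the latter over a few reads. Tnf was not called between the cell types in either genotype (adjusted p = 0.204 and 0.334). Il23a, which encodes the p19 chain of IL-23, ranged over 2.24 to 5.54 and 4.10 to 10.6 in wild-type and knockout macrophages and over 9.88 to 16.7 and 9.39 to 22.2 in monocytes, under the minimum for a test between them.

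**Figure D3:**
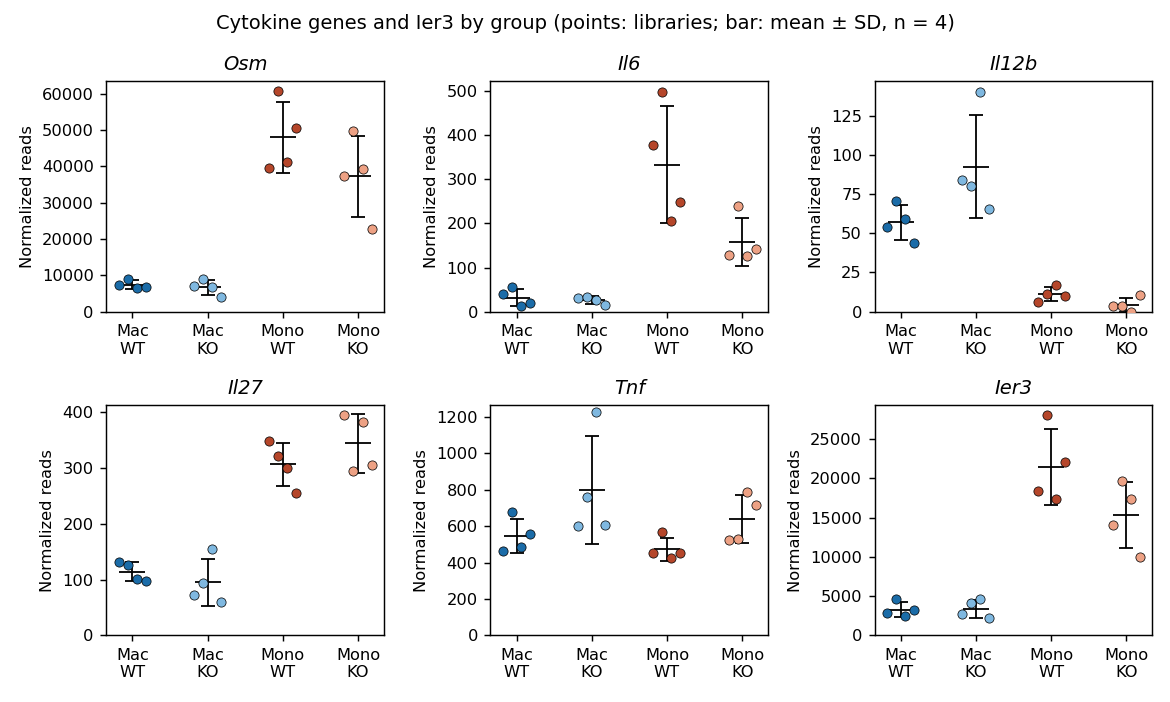
Normalized reads (vertical axes, linear, from 0) of 5 cytokine genes and Ier3 in macrophages (Mac) and monocytes (Mono) of wild-type (WT) and C3 knockout (KO) mice. Each point is a library and the bars give mean ± SD (n = 4). Osm, Il6, Il27 and Ier3 were higher in monocytes, Il12b was higher in macrophages, and Tnf overlapped between the cell types.

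Ier3 was at 2856, 4628, 2499 and 3178 in wild-type macrophages and 18325, 28052, 17366 and 22071 in monocytes, without overlap. Monocytes were 6.52-fold higher in wild-type (adjusted p = 3.90e-06) and 4.49-fold higher in knockout mice (adjusted p = 3.48e-04). Tnfaip2, a TNF-induced gene, was 2.50-fold and 3.26-fold higher in monocytes. Sod2, which encodes the mitochondrial superoxide dismutase, was 1.75-fold and 1.76-fold higher. Saa3 was 7.32-fold higher in wild-type (adjusted p = 0.00277) and 3.02-fold higher in knockout monocytes (adjusted p = 0.0154, and 0.0564 with array quality weights). Cd83 was higher in macrophages, 4.50-fold in wild-type (adjusted p = 8.01e-08) and 2.49-fold in knockout mice (adjusted p = 0.00368).

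**Figure D4:**
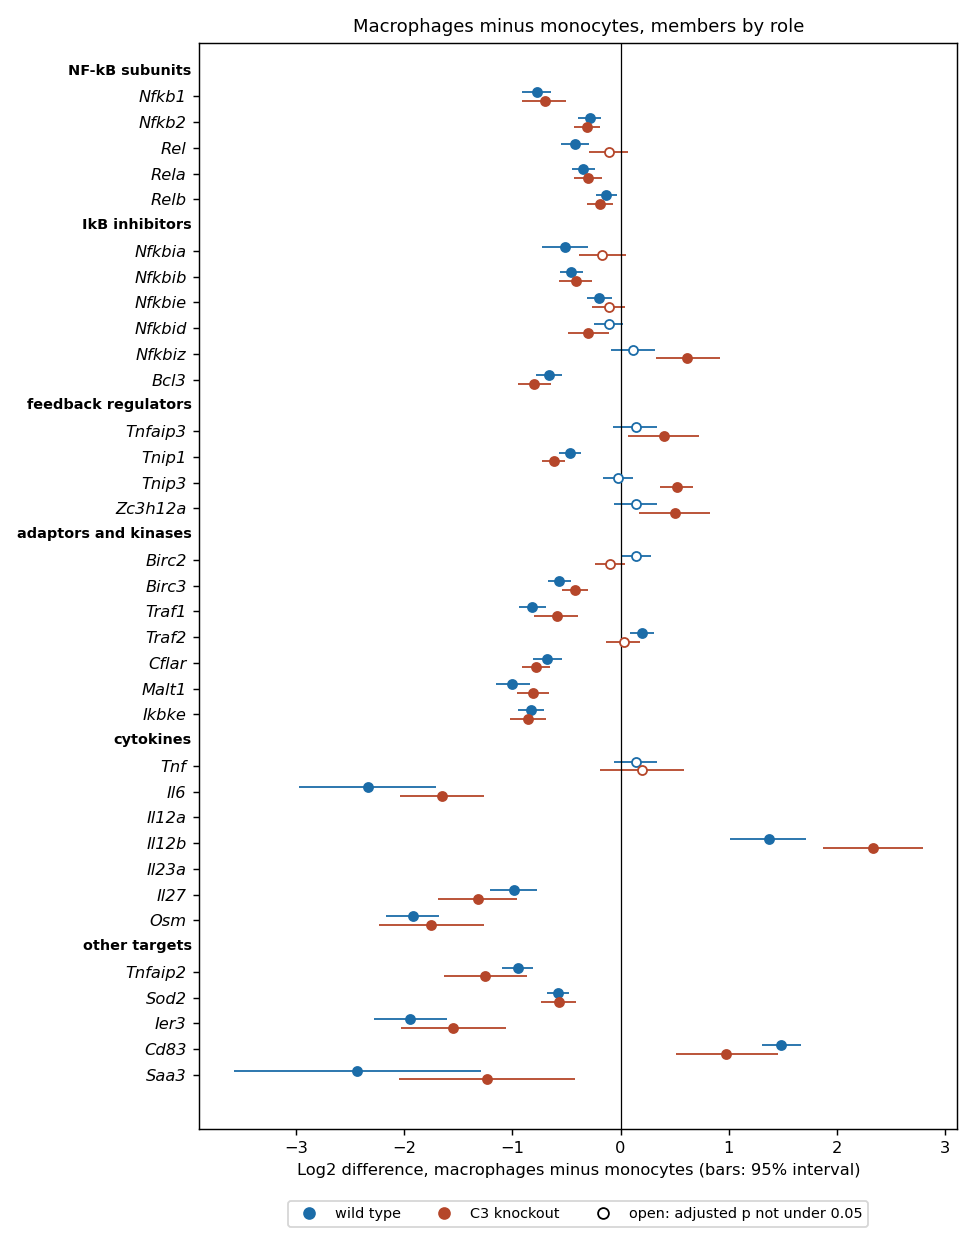
Log2 difference between macrophages and monocytes (horizontal axis, deposited log2 scale, negative where macrophages were lower) for each member, ordered by role, in wild-type (blue) and C3 knockout mice (red). Points are estimates, bars 95% intervals, and open points did not pass an adjusted p of 0.05. Filled points lie left of 0 for 22 members in wild-type and 20 in knockout mice.

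Early response genes and markers of several other cell types were also lower in macrophages. Of 19 immediate early genes tested, 11 were lower and 1 higher in wild-type macrophages than monocytes, and their summed level was 309625 to 388014 normalized reads in macrophages and 589408 to 814552 in monocytes. In knockout mice 10 were lower and 1 higher, with sums of 265371 to 427087 and 462307 to 808978. Of 10 neutrophil markers, the 6 tested, Mmp8, S100a8, S100a9, Csf3r, Cxcr2 and Retnlg, were all lower in macrophages in both genotypes. Ly6g, Camp, Ltf and Ngp were under the minimum for a test. The list's sums were 1734 to 2108 in wild-type macrophages, where Camp was at 0. In wild-type monocytes they were 8186 to 12196, and no marker was at 0. Fibroblast and sarcoma markers were lower in macrophages too, 5 of 6 tested in wild-type and 4 of 5 in knockout mice. The 4 red blood cell markers were all lower in both genotypes, with median log2 differences of -1.19 and -1.26. T and NK cell markers were lower for 3 of 6 tested in wild-type and 6 of 7 in knockout mice, and Cd4 was higher in both. Dendritic cell markers were lower for 3 of 6 and 5 of 8, and higher for 1 and 2. Of 2 B and plasma cell markers, Cd79b was lower in wild-type macrophages and Ms4a1 higher in knockout macrophages. Their part in the differences of Osm, Il6, Ier3 and the other members was not tested.

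Levels of different genes are compared per kilobase of exon. In wild-type monocytes the highest members were Osm at 21100 ± 4282 normalized reads per kilobase, Ier3 at 18968 ± 4283 and Nfkbia at 12027 ± 1843 (SD, n = 4). The ranges of Osm and Ier3 overlapped, at 17392 to 26672 and 15354 to 24802. In wild-type macrophages the order was led by Nfkbia at 7364 ± 1401 per kilobase and Cd83 at 4677 ± 838, followed by Osm at 3279 ± 504 and Ier3 at 2909 ± 826, the last pair within each other's spread. Knockout macrophages had Cd83 at 7411 ± 2049 and Nfkbia at 7232 ± 1236 per kilobase, also within their spread. Such pairs of genes were not compared within each mouse. Of the subunits, Rela was the highest in every group, from 1265 ± 75.1 per kilobase in wild-type macrophages to 1786 ± 155 in knockout monocytes. Il12a, Il23a and Il12b stood lowest in monocytes, and Il12a and Il23a in macrophages.

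**Figure D5:**
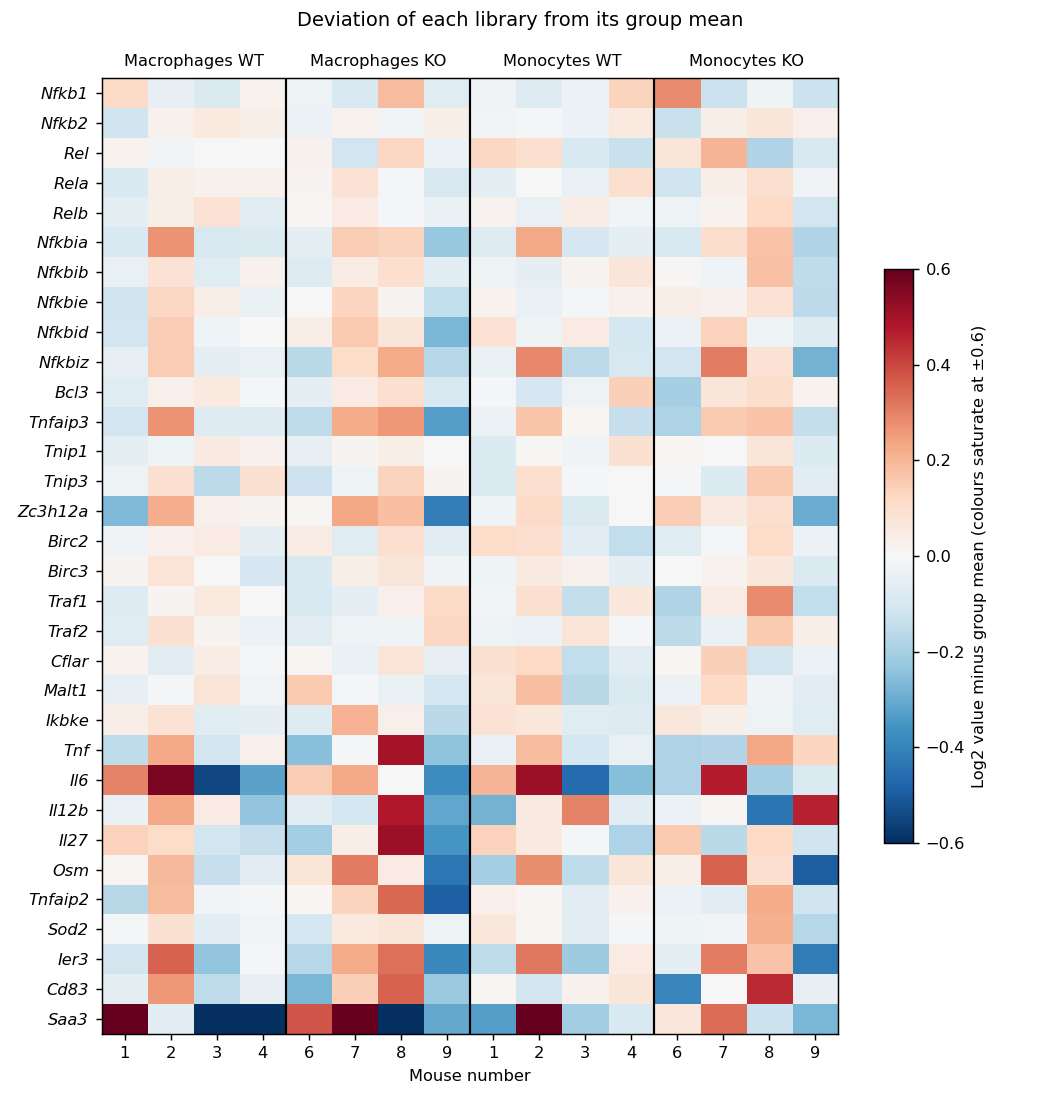
Each library's deposited log2 value minus the mean of its group, for the 32 members with a mean of at least 10 normalized reads (rows) and the 16 libraries (columns, by mouse number). Red is above and blue below the group mean, and colours saturate at a deviation of 0.6. Mice 2 and 8 have mostly red columns and mouse 9 mostly blue ones.

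Within a group, many members were high or low in the same library. Of the 32 members with a mean of at least 10 normalized reads, wild-type mouse 2 had the highest macrophage level for 20 and the highest monocyte level for 14. Knockout mouse 8 was highest for 18 members in macrophages and for 18 in monocytes. Knockout mouse 9 was lowest for 18 members in macrophages and for 16 in monocytes. Wild-type mouse 1 was lowest for 13 in macrophages. Of the 5 subunit genes, mouse 2 was highest for 1 in macrophages and for none in monocytes, and mouse 8 for 2 and 3. Of 20 immediate early genes, mouse 8 was highest for 9 in macrophages and 15 in monocytes. Mouse 1 was lowest for 15 of them in each cell type, and mouse 6 for 12 in macrophages and 11 in monocytes. These counts describe the libraries and carry no test.

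The rest of the pathway was read from lists of other NF-kB genes. Of 56 further signalling genes, receptors, kinases and regulators, none was called between genotypes in macrophages or in monocytes, with log2 differences from -0.31 to 0.17 and from -0.25 to 0.28. Between the cell types, 35 were lower (62.5%) and 7 higher (12.5%) in wild-type macrophages, where all genes gave 31.7% and 31.7%. In knockout mice 32 were lower (57.1%) and 6 higher (10.7%), where all genes gave 29.6% and 31.0%. The TNF receptor gene Tnfrsf1b was at 8367 ± 736 in wild-type macrophages and 24847 ± 1565 in monocytes (adjusted p = 1.56e-08), and Tnfrsf1a was 2.10-fold higher in monocytes. Ikbkb, which encodes the IkB kinase IKK-beta, was 2.27-fold higher in wild-type monocytes, Irak3, an inhibitor of Toll-like receptor signalling, 2.73-fold, and the adaptor gene Myd88 2.01-fold. Nlrc3, a negative regulator, was higher in macrophages, 5.89-fold in knockout mice (adjusted p = 3.05e-07). The medians were -0.28 and -0.23, beside -0.01 and 0.00 over all genes.

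Of 36 other NF-kB target genes tested, 1 was called in knockout macrophages (2.78%, beside 5.70% of all genes), Ccnd1, the gene of the cell-cycle protein cyclin D1, which rose from 2126 ± 137 to 5403 ± 1242 (SD, n = 4 each; adjusted p = 7.85e-04). In knockout monocytes 3 of 36 rose (8.33%, where 1.40% of all genes did), and none fell. Plau, which encodes the protease urokinase, was 2.67-fold higher (adjusted p = 3.87e-04), the cytokine gene Il15 1.63-fold higher (adjusted p = 0.0106) and the transcription factor gene Irf1 1.79-fold higher (adjusted p = 0.0335). The knockout effects of Plau and Il15 were smaller in macrophages than in monocytes, by log2 differences of -0.82 ± 0.13 and -0.55 ± 0.12 (adjusted p = 0.00360 and 0.0353). Between the cell types, 23 targets were lower (63.9%) and 10 higher (27.8%) in wild-type macrophages, where all genes gave 31.7% and 31.7%. In knockout macrophages 17 were lower (47.2%) and 10 higher (27.8%), where all genes gave 29.6% and 31.0%. The scavenger receptor gene Olr1 was 28.0-fold and the C-type lectin gene Clec4e 11.7-fold higher in wild-type monocytes. Bcl2a1b, 1 of several near-identical Bcl2a1 copies whose reads may not be told apart, was 2.60-fold higher in wild-type macrophages.

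Among genes tested within 2.5 Mb on either side, 0 of 19 around Rel, 1 of 46 around Traf1 (2.17%) and 2 of 14 around Tnip3 (14.3%) were called in macrophages. Over their whole chromosomes 11, 2 and 6, the shares called were 4.08%, 4.45% and 7.52%, beside 5.70% of all genes. In monocytes 0 of 18 around Cd83 and 0 of 73 around Saa3 were called. There chromosomes 13 and 7 gave 1.96% and 7.57%, and all genes 3.32%. What part such neighbourhoods have in the members' differences was not tested. Exons of 6 members, Nfkb2, Nfkbib, Bcl3, Ikbke, Il27 and Tnfaip2, overlap those of another gene by 103 to 830 bases, and reads from those stretches may not be told apart.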

How the data were processed

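RNA was measured in 16 libraries of 4 groups of 4 mice, made from 5 ng of RNA each with a kit for low input that does not mark strand. Reads were aligned with STAR 2.7.2b to GRCm38 and handled with DESeq2, per the submitters' processing notes. No source used here names the annotation used for counting. The authors deposited 1 matrix of log2 values, for which no transformation is named, and 2 tables of wild type against knockout, with a mean signal per gene, a log2 fold change, a test statistic (a Wald score) and p-values raw and adjusted. Their log2 fold changes are wild type over knockout, so the signs were reversed before comparison with the differences given here.

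The design assumed counts or log2 values, and the files held log2 values. Solving the equations of a regularized logarithm gave back reads. For the 20443 genes whose base mean reached 1, 80.7% of values came out whole to within 0.05 reads, and 99.7% of genes came within 1% of the deposited base mean. Normalized reads are these reads over the size factor.

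Tests used limma 3.58.1 (R 4.3.3) on the deposited log2 values, with trend and robust estimation, on genes whose linear value reached 10 in at least 4 libraries of the fit. A comparison of 2 groups was fitted on their 8 libraries alone, and the difference of knockout effects on all 16. The scripts were tested on simulated data. Alternatives were the filter, scaling, weights, variance model, voom on recovered reads, libraries in the fit, libraries left out in turn and the mouse as a replicate block. Macrophages and monocytes with the same number come from the same mouse, per the labels' titles. Their deviations from the group means correlated at 0.417, 0.107, 0.031 and 0.207 in wild-type mice 1 to 4 and at 0.052, 0.084, 0.211 and 0.083 in knockout mice 6 to 9.

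The members and lists were chosen with earlier results of these data known. The genes named are the 34 members, C3 and, of the other NF-kB lists, called genes among the 5 smallest adjusted p of a comparison. Promoters are those of members called between genotypes whose window holds a kB match. Coordinates and exon lengths are from GENCODE on GRCm38, promoter sequences from RefSeq on GRCm38.p6. Library depth limits the precision of levels under about 10 normalized reads.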

Additional observations from a re-analysis of the deposited data

Results flagged for a closer look

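In 7 of 128 groups of 4 libraries examined for the members, 1 library lay farther from the rest than Dixon's 95% critical value allows, where chance alone gives about 1 in 20. Wild-type mouse 2 was high in 4 of them, Nfkbia in macrophages (15240 normalized reads) and in monocytes (23787), Nfkbiz in macrophages (11560) and Tnfaip3 in macrophages (10514). Wild-type mouse 1 was low for Nfkb2 (3787) and Rela (3540) in macrophages. Knockout mouse 7 was high for Il6 in monocytes (239).

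The knockout effect on Tnip3 differed between the cell types by 0.54 on the log2 scale, macrophages minus monocytes, by the test of the difference itself.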

How the results depend on the processing

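The alternatives counted here include the authors' deposited tables. Over the members' log2 differences under them, 2774 kept their side of the threshold, 20 newly passed it and 15 no longer passed it. Of the 2774, 52 had the opposite sign, none of them for a difference that was called. The authors' deposited tables called 5 members in macrophages and 4 in monocytes, against 3 and 2. The count over all genes in monocytes rose from 427 to 981 with all 16 libraries in 1 fit and to 1329 in the authors' table. With the mouse as a replicate block, 27 members were called between cell types in wild-type and 27 in knockout mice, and 1 for the difference of knockout effects, with 8399, 7773 and 139 of all genes. The block changed the calls of Nfkbia, Nfkbiz and Tnfaip3 given above and no other call of a member. Leaving out each library in turn gave 3 to 4 members in macrophages, 2 to 3 in monocytes, 24 to 27 and 25 to 26 between cell types in wild-type and knockout mice, and 1 in every case for the difference. Over all genes it gave 458 to 656 in macrophages (458 without wild-type mouse 2), 237 to 459 in monocytes (lowest without knockout mouse 8, with 243 without mouse 9, and 282, 263 and 280 without wild-type mice 2, 3 and 4), 7351 to 7782 and 7051 to 7356 between cell types, and 48 to 125 for the difference (81 with all libraries). The causes were not tested. TMM scaling moved the median of all genes by at most 0.042. Levels under about 10 normalized reads, as for Il12a and Il23a, are limited by depth.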
